A study of Mus musculus with 4 samples.

Results

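Cathepsins, the asparaginyl endopeptidase legumain and the cathepsin inhibitor cystatin C were followed in mouse bone marrow-derived dendritic cells (BMDC) that had met ovarian surface epithelial tumour cells or their supernatant. The set held 10 genes, Ctsb, Ctsc, Ctsd, Ctse, Ctsh, Ctsk, Ctsl, Ctsz, Lgmn and Cst3, taken as all probe sets annotated to these symbols. These were 21 of the 34945 probe sets with 1 gene, and 10 of 18193 genes. Each of 4 conditions was measured on 1 Affymetrix array from 1 biological sample. The live coculture held BMDC and live cells of 1D8, a line of mouse ovarian surface epithelium used as tumour cells, with 5 BMDC for each tumour cell. For the irradiated coculture, 50 Gy had been given to the 1D8 cells. In the conditioned medium sample, 1D8 supernatant made up 25% of the volume. The control BMDC met neither 1D8 cells nor their supernatant. All 4 samples came from bone marrow of male C57BL/6 mice aged 6 to 8 weeks, were grown with 500 U/ml GM-CSF for 7 days and were sorted by flow cytometry with an antibody to CD80. The labels do not say which fraction was kept. The length of exposure to the tumour cells and any pooling of mice are not given in the sources used here. An array of 1D8 cells alone was not analysed here.

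Cathepsins are the main proteases of endosomes and lysosomes, where low pH lets them mature from inactive precursors. In dendritic cells they cut antigens into peptides and degrade the invariant chain that blocks the MHC class II groove. Ctsd and Ctse encode aspartic proteases, legumain cuts after asparagine, and the other cathepsins of the set are cysteine proteases. Cystatin C, from Cst3, is a secreted inhibitor of cysteine cathepsins and is abundant in dendritic cells.

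Values are MAS5 signals, 1 linear brightness value per probe set, and their mean without the lowest and highest 2% was 150.0 on every array. A signal below 44.3, the 50th percentile of all signals, was set to that floor before a ratio was taken, and all 21 probe sets exceeded the floor on all 4 arrays. A gene was represented by its brightest probe set, and a difference of at least 2-fold (a log2 ratio of 1 or more in size) was counted. With 1 array per condition no replicate error exists and no test was made, so higher and lower describe these 4 arrays. The 3 comparisons with the control share the control array. In such bulk samples fewer cells of a type and less RNA per cell cannot be told apart. As a stand-in for error, the spread of log2 ratios between the 2 brightest probe sets of the same gene was used. Both sets are read from the same arrays, so this spread holds no variation between cultures or mice and sets no limit of significance. Its robust SD, which gives outlying genes little weight and is the spread used throughout, was 0.41 for live coculture against control (4272 genes), 0.37 for irradiated coculture against control (4263 genes) and 0.37 for conditioned medium against control (4315 genes). It was 0.21 to 0.22 for the comparisons among the treated arrays. The root mean square SD was larger, at 0.46, 0.42 and 0.41 against the control and 0.24 to 0.29 among the treated arrays.

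At the brightest probe sets the cathepsin genes differed little between the arrays, apart from Ctse and Ctsk. With live 1D8 cells 1 of the 10 genes was at least 2-fold higher than in the control, against 3.36% of all genes, and 0 were at least 2-fold lower, against 2.23%. In the irradiated coculture 1 was higher (3.47% of all genes) and 1 lower (2.25%). In conditioned medium 1 was higher (2.3%) and 0 were lower (1.41%). These shares are over all 18193 genes, of which 9847 were above the floor on all arrays, as all 10 genes of the set were. Genes at the floor seldom reach 2-fold, and the shares among the 9847 were not counted. The higher gene was Ctse each time and the lower one was Ctsk. With the mean over a gene's probe sets the higher gene in the cocultures was Ctsc instead, at log2 ratios of 1.21 and 1.18, and Ctse stood at 0.52 and 0.62. The median log2 ratio of the 10 genes was -0.25 with live 1D8 cells, -0.10 with irradiated 1D8 cells and -0.11 in conditioned medium, against -0.04, -0.05 and 0.00 over the 9847 genes above the floor on all arrays. Beyond the spread between probe sets of a gene, 5 genes were lower and 1 was higher in the live coculture, while 2 were lower and 2 higher in each of the other treated samples. The share of all genes beyond this spread was not counted, so these counts are not read as a result about the set. They also depend on the scaling and on the measure of spread. After quantile normalization 2 were lower and 2 higher in the live coculture too, and with the root mean square SD 3 were lower there, without Ctsz and Lgmn. After quantile normalization the higher share of all 2-fold genes was 49.9% in place of 60.1% for the live coculture and 45.7% in place of 62.1% for conditioned medium, and after median centring it was 48.3% and 44.9%. For live against irradiated coculture the share was 40.2% after centring in place of 54.9%, so the balance of directions depends on the scaling.

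**Figure D1:**
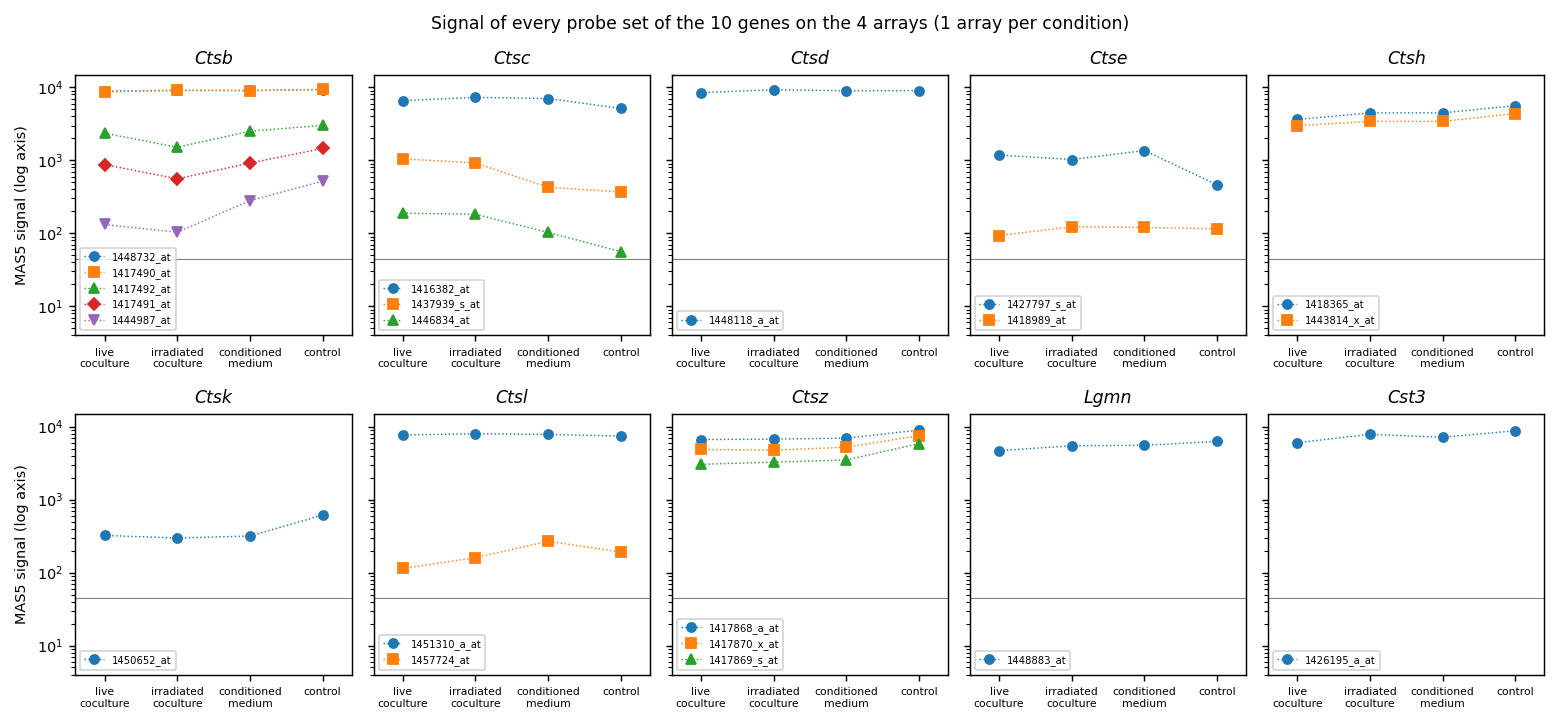
MAS5 signal (log axis) of each of the 21 probe sets of the 10 genes on the 4 arrays, 1 panel per gene. Points are single arrays, dotted lines join the points of 1 probe set and imply no order, and the grey line is the floor of 44.3. The brightest probe sets of Ctsb, Ctsd and Ctsl are level at 7441 to 9335, Ctse stands lowest in the control at its brightest probe set, and Ctsk stands highest in the control.

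Ctsd encodes cathepsin D, an aspartic endopeptidase. Its single probe set had signals of 8482 with live 1D8 cells, 9267 with irradiated 1D8 cells and 8989 in conditioned medium, against 9034 in the control. The 4 values lie within 1.09-fold of each other, and no treated array stood apart from the control.

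Ctse encodes cathepsin E, an endosomal relative of cathepsin D that takes part in antigen processing. Its brighter probe set had signals of 1181 with live 1D8 cells, 1026 with irradiated 1D8 cells and 1361 in conditioned medium, against 461.3 in the control. All 3 treated arrays were above the control, by 2.56-fold, 2.22-fold and 2.95-fold in that order, and conditioned medium was the highest. The other probe set had signals of 93.0, 123.1 and 120.1 on the treated arrays in the same order and 115.4 in the control. Its log2 ratios of -0.31, 0.09 and 0.06 lay within the spread between probe sets, so the 2 probe sets disagree on Ctse. The brighter one carries the suffix _s_at, which Affymetrix gives to sets whose probes match more than 1 transcript, and the dimmer one does not. Without _s_at and _x_at sets the 2-fold difference of Ctse was not present on any treated array.

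Ctsb encodes cathepsin B, a cysteine protease that acts as an endopeptidase and trims dipeptides from the C-terminus. It had 5 probe sets, and all 5 were below the control on all 3 treated arrays, by amounts that differed widely. The brightest had signals of 8902 with live 1D8 cells, 9117 with irradiated 1D8 cells and 9078 in conditioned medium, against 9335 in the control. Another at the same brightness had 8632, 9090 and 9002 on the treated arrays in that order, against 9386 in the control. These 2 probe sets show differences of at most 1.09-fold.

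The 3 dimmer probe sets of Ctsb showed larger differences, most of all in the irradiated coculture. Probe set 1417492_at had signals of 2355 with live 1D8 cells, 1510 with irradiated 1D8 cells and 2508 in conditioned medium, against 3017 in the control. Its log2 ratio of -0.999 in the irradiated coculture lay just under the 2-fold threshold. Probe set 1417491_at had 872.8 with live 1D8 cells, 557.9 with irradiated 1D8 cells and 917.1 in conditioned medium, against 1456 in the control. It was 1.67-fold, 2.61-fold and 1.59-fold lower. Probe set 1444987_at had 131.9, 103.2 and 280.5 on the treated arrays in the same order and 518.3 in the control. It was 3.93-fold, 5.02-fold and 1.85-fold lower. Since 2 probe sets show almost no difference and 3 show a lower signal, the size of the difference in Ctsb RNA is not settled by these arrays. RNA integrity, read as the signal of the 3' Actb control set over that of the 5' set, was 1.14 with live 1D8 cells, 1.12 with irradiated 1D8 cells and 1.20 in conditioned medium, against 1.30 in the control, and its part in the probe set differences was not tested.

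Ctsl encodes cathepsin L, a cysteine endopeptidase that degrades the invariant chain in thymic epithelium. Its brighter probe set had signals of 7687 with live 1D8 cells, 7996 with irradiated 1D8 cells and 7831 in conditioned medium, against 7441 in the control, a range of 1.07-fold. Its dimmer probe set had 113.9, 159.9 and 268.9 on the treated arrays in that order and 191.2 in the control. The dimmer set placed the live coculture lowest and conditioned medium highest, with log2 ratios to the control of -0.75 and 0.49. The sets differ in where the control stands, lowest at the brighter set and above both cocultures at the dimmer one.

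Ctsk encodes cathepsin K, the collagen-degrading cysteine protease of osteoclasts. Its single probe set had signals of 322.8 with live 1D8 cells, 297.8 with irradiated 1D8 cells and 317.1 in conditioned medium, against 613.4 in the control. The 3 treated arrays lay within 1.08-fold of each other, and all were below the control, by 1.90-fold, 2.06-fold and 1.93-fold. Only the irradiated coculture passed the 2-fold threshold, although the 3 ratios differ by less than the spread between probe sets. Other osteoclast markers differed in direction. Itgb3, an integrin subunit, had 6.7 and 26.9 in the live and irradiated cocultures, both under the floor, and 97.6 in conditioned medium, against 177.4 in the control, the same direction as Ctsk. Dcstamp, a fusion protein of osteoclast precursors, had 145.4, 96.5 and 48.3 on the treated arrays and 141.3 in the control. Acp5, the tartrate-resistant acid phosphatase, had signals of 1673 with live 1D8 cells, 2027 with irradiated 1D8 cells and 682.2 in conditioned medium, against 582.7 in the control. Calcr and Ocstamp were under the floor on all 4 arrays. Of 8 osteoclast markers 1 was higher and 1 lower at least 2-fold in each coculture, and 0 were higher and 1 lower in conditioned medium. Their summed signal was 2411, 2723 and 1471 on the treated arrays in the same order and 1442 in the control. In the cocultures most of that sum was Acp5.

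Ctsc encodes cathepsin C, or dipeptidyl peptidase I, which activates the serine proteases of neutrophil, mast cell and lymphocyte granules. All 3 of its probe sets were above the control on all 3 treated arrays. The brightest had signals of 6588 with live 1D8 cells, 7296 with irradiated 1D8 cells and 7034 in conditioned medium, against 5140 in the control, which is 1.28-fold, 1.42-fold and 1.37-fold higher. Probe set 1437939_s_at had 1048, 919.6 and 426.8 on the treated arrays in that order and 368.2 in the control. Probe set 1446834_at had 188.6, 182.2 and 102.6 on the treated arrays in that order and 56.1 in the control. In the cocultures these dimmer sets were 2.50-fold to 3.36-fold higher than the control, while in conditioned medium they were 1.16-fold and 1.83-fold higher. The direction is shared by the 3 probe sets and its size is not.

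Elane, Ctsg and Prtn3, neutrophil granule proteases that cathepsin C activates, had signals far below that of the brightest Ctsc probe set. Elane, neutrophil elastase, had 27.0 in the live coculture and 30.2 in the irradiated coculture, both under the floor, and 128.5 in conditioned medium, against 158.8 in the control. Ctsg, cathepsin G, had 28.4, 14.3 and 62.0 on the treated arrays in that order and 232.8 in the control, at least 5.26-fold lower in both cocultures and 3.75-fold lower in conditioned medium. Prtn3, proteinase 3, chosen after its values were seen, had 213.5, 294.6 and 243.1 on the treated arrays and 183.2 in the control.

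Ctsh encodes cathepsin H, mainly an aminopeptidase. Its brighter probe set had signals of 3635 with live 1D8 cells, 4462 with irradiated 1D8 cells and 4470 in conditioned medium, against 5613 in the control. Its other probe set had 2989, 3409 and 3418 on the treated arrays in that order and 4384 in the control. Both sets placed the live coculture lowest and the control highest, with log2 ratios of -0.63 and -0.55 for the live coculture and -0.33 to -0.36 for the other treated samples.

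Ctsz encodes cathepsin Z, a carboxypeptidase. Its 3 probe sets had signals of 6650, 4876 and 3050 in the live coculture, of 6754, 4774 and 3264 in the irradiated coculture and of 6961, 5226 and 3494 in conditioned medium, against 8983, 7528 and 5863 in the control. Every set had its highest value in the control. The differences widened as the probe sets became dimmer, with log2 ratios for the live coculture of -0.43, -0.63 and -0.94 in the order given. None reached 2-fold, and the largest was 1.92-fold.

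Lgmn encodes legumain, which also processes several cathepsins to their mature forms. Its probe set had signals of 4693 with live 1D8 cells, 5465 with irradiated 1D8 cells and 5563 in conditioned medium, against 6270 in the control. The live coculture was 1.34-fold below the control, just beyond the robust spread between probe sets and within the root mean square SD, and the other treated arrays lay within both.

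Cst3, the inhibitor of the set, had signals of 6021 with live 1D8 cells, 7858 with irradiated 1D8 cells and 7167 in conditioned medium, against 8786 in the control. The control was the highest array and the live coculture the lowest, 1.46-fold below it. The irradiated coculture (log2 ratio -0.16) and conditioned medium (-0.29) lay within the spread between probe sets. Cstb, an intracellular inhibitor of cysteine cathepsins, had 6752, 7434 and 6738 on the treated arrays in that order and 8173 in the control.

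**Figure D2:**
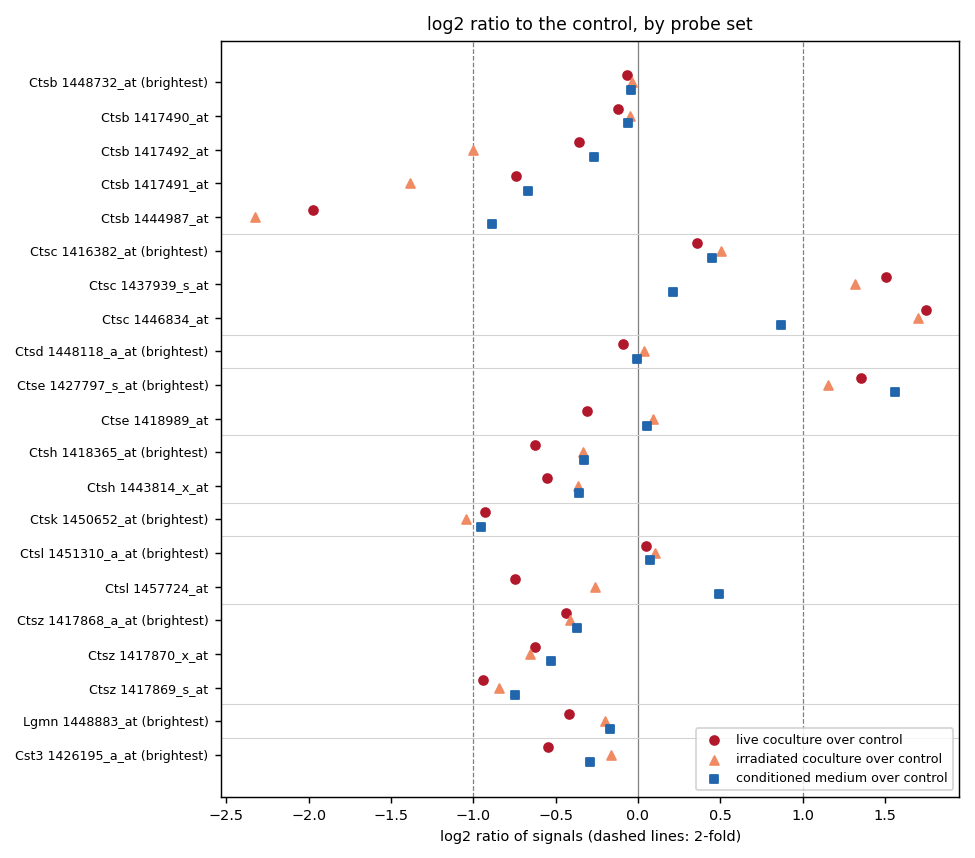
log2 ratio of each treated array to the control for the 21 probe sets, grouped by gene with the brightest set first. Circles are the live coculture, triangles the irradiated coculture and squares conditioned medium, and dashed lines mark 2-fold. All sets of Ctsb, Ctsh and Ctsz lie below 0 and all sets of Ctsc above 0, while the 2 sets of Ctse disagree.

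Counted by probe set, 4 of the 21 were at least 2-fold apart from the control in the live coculture (19.0%, against 6.57% of all probe sets). The count was 6 in the irradiated coculture (28.6%, against 6.08%) and 1 in conditioned medium (4.76%, against 4.68%). Probe sets of a gene measure the same RNA and are not replicates, and the higher sets belong to Ctsc and Ctse only. The shares of all probe sets are over 34945 sets, many of them at the floor, where 2-fold is seldom reached. All 21 sets exceeded the floor, so this background is too low for them. Neither the excess in the cocultures nor the near equality in conditioned medium is read as a result. The shares among probe sets above the floor were not counted.

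The brightest probe sets stood near the top of the range of signals. For 8 of the 10 genes the brightest set stood at or above the 99th percentile of its array on all 4 arrays, and the highest signal on any array was 10186 to 11111. Among the 27 probe sets of the whole table with a mean signal of 8000 or more, 0 differed 2-fold from the control on any treated array, and the SD of their log2 ratios was 0.12 to 0.15. Among the 1251 sets with a mean of 1000 to 2500, 11.5%, 10.8% and 6.0% differed 2-fold in the live coculture, the irradiated coculture and conditioned medium, with SDs of 0.68, 0.71 and 0.51. The brightest sets of Ctsb and the set of Ctsd are among the 27. A small ratio at these sets does not show that the RNA was equal, and the part of brightness in it was not tested.

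**Figure D3:**
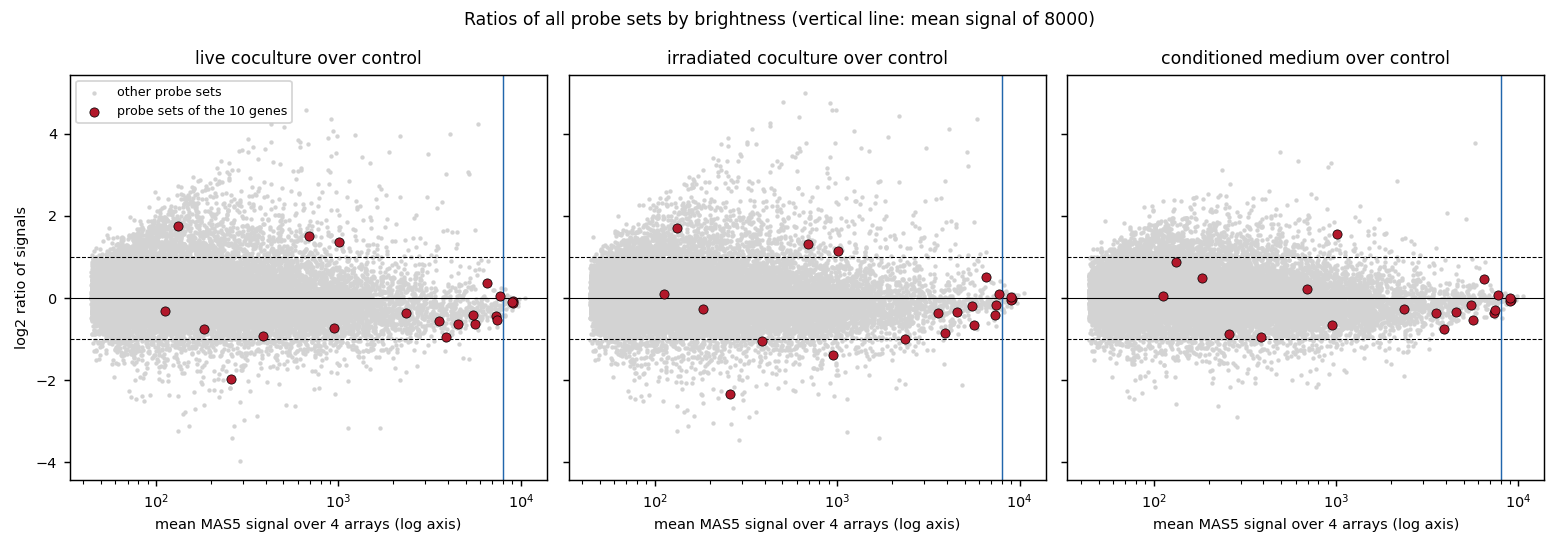
log2 ratio to the control (vertical axis) against the mean signal over the 4 arrays (log axis) for all probe sets with 1 gene and a mean above the floor in grey and for the 21 probe sets of the cathepsin genes in red. Dashed lines mark 2-fold, and the blue line marks a mean of 8000, beyond which 0 of 27 probe sets differed 2-fold.

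Among the treated arrays 0 of the 10 genes differed 2-fold at their brightest probe sets. The background was 0.671% of all genes for live against irradiated coculture, 2.89% for live coculture against conditioned medium and 3.18% for irradiated coculture against conditioned medium. These shares too include genes at the floor. With live 1D8 cells Ctsh, Lgmn and Cst3 were below their level with irradiated 1D8 cells by more than the spread between probe sets, with log2 ratios of -0.30, -0.22 and -0.38. These 3 genes were also below their level in conditioned medium, with log2 ratios of -0.30, -0.25 and -0.25. The other probe set of Ctsh had a log2 ratio of -0.19 in each of these comparisons, within the spread. Lgmn and Cst3 have 1 probe set each. For these comparisons too the share of all genes beyond the spread was not counted. After quantile normalization Ctsh (-0.14) and Lgmn (-0.06) lay within the spread against irradiated 1D8 cells and Cst3 (-0.23) beyond it, while Ctse was higher beyond it. Against conditioned medium only Ctsh (-0.24) of the 3 then lay beyond it. With the root mean square SD Lgmn lay within it in both comparisons, and Cst3 within it against conditioned medium. Ctse was lower with irradiated 1D8 cells than in conditioned medium (log2 ratio -0.41). Among the dimmer sets, 1437939_s_at of Ctsc was higher than in conditioned medium by log2 ratios of 1.30 in the live coculture and 1.11 in the irradiated coculture. Probe set 1444987_at of Ctsb was lower than in conditioned medium by log2 ratios of -1.09 in the live coculture and -1.44 in the irradiated coculture. Probe set 1457724_at of Ctsl was lower with live 1D8 cells than in conditioned medium, by a log2 ratio of -1.24. Probe sets 1417492_at and 1417491_at of Ctsb were both 1.56-fold higher in the live than in the irradiated coculture.

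Of the 16 cathepsin genes outside the set, 4 were above the floor on all arrays, and 1 was lower at least 2-fold in each comparison with the control, which was Ctsg. Ctss, the cathepsin that completes invariant chain degradation in dendritic cells, had signals of 8650 with live 1D8 cells, 9423 with irradiated 1D8 cells and 9531 in conditioned medium, against 9246 in the control. It belongs to the same top band of brightness as Ctsb and Ctsd. Of 14 other inhibitor genes that were measured, 2 were above the floor on all arrays, and 1 was higher and 2 were lower at least 2-fold in each coculture, with 0 in conditioned medium. Ctla2b, related to the propeptide of cathepsin L, had 362.7, 412.1 and 164.0 on the treated arrays in that order and 141.7 in the control. Its neighbour in sequence Ctla2a had 15.8, 32.4 and 111.3 on the treated arrays and 166.6 in the control, the opposite direction in the cocultures. RNA of such near copies can bind the same probes, so neither direction is certain. Cst7, the cystatin of immune cells also called cystatin F, had 14.7, 46.4 and 89.0 on the treated arrays and 102.7 in the control.

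Most genes of other lysosomal proteins were below the control, beside 7, 6 and 7 of the 10 genes in the live coculture, the irradiated coculture and conditioned medium. Of the 9847 genes above the floor 53.5%, 53.8% and 49.8% were below it, so the counts of the 10 genes lie near the share of all genes. Of 30 lysosomal hydrolases 28, 25 and 26 had a log2 ratio below 0 on these arrays in the same order, and 5, 3 and 2 were at least 2-fold lower with 0 higher. Their medians were -0.43, -0.34 and -0.26. With the mean over probe sets 23, 23 and 22 of the 30 were below 0, and 3, 2 and 0 were at least 2-fold lower. Lipa, the acid lipase, had signals of 2622 with live 1D8 cells, 2104 with irradiated 1D8 cells and 4239 in conditioned medium, against 6356 in the control. Its other 2 probe sets had log2 ratios of -1.73 to -1.99 in the cocultures. Dpp7, a dipeptidyl peptidase, was 3.11-fold, 3.69-fold and 2.20-fold lower on the treated arrays in that order, and its other 2 sets were lower too. Gusb and Pla2g15 had a second probe set with differences under 2-fold on all treated arrays.

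Of 27 lysosomal membrane and proton pump genes 26, 25 and 25 were below 0, with medians of -0.55, -0.52 and -0.51, and 2, 4 and 1 were at least 2-fold lower with 0 higher. Slc15a3, a peptide transporter of lysosomes, was the 1 in conditioned medium, at 1309.7 against 3232 in the control. With the mean over probe sets 25, 25 and 24 of the 27 genes were below 0, and 0, 0 and 1 were at least 2-fold lower. The 15 measured genes of the proton pump, the enzyme complex that acidifies lysosomes, and of its accessory proteins were below the control on all 3 treated arrays. Their median log2 ratios were -0.73 with live 1D8 cells, -0.61 with irradiated 1D8 cells and -0.59 in conditioned medium, with 2, 4 and 0 at least 2-fold lower. For comparison, the median over all probe sets with a mean signal of 1000 to 2500 was -0.22, -0.16 and -0.17 in the same order. After quantile normalization all 15 were still below 0, with medians of -0.55, -0.51 and -0.43 and 0, 2 and 0 at least 2-fold lower. With the mean over probe sets 14, 15 and 14 of the 15 were below 0 and 0 were 2-fold lower on any treated array. Without _s_at and _x_at sets 12 of 13 were below 0 on each. Atp6v1c1, a subunit of the catalytic part of the pump, had signals of 1934, 1795 and 1966 on the treated arrays in that order and 3880 in the control, and its other probe sets had log2 ratios of -0.54 to -1.06. Atp6v1b2, another subunit of that part, had 2184.5, 1999.6 and 3501 on the treated arrays and 4795 in the control. Atp6v0a1, a subunit of the membrane part, had 486.4, 400.9 and 493.3 on the treated arrays and 950.7 in the control, while 2 of its dimmer sets had ratios above 0.

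**Figure D4:**
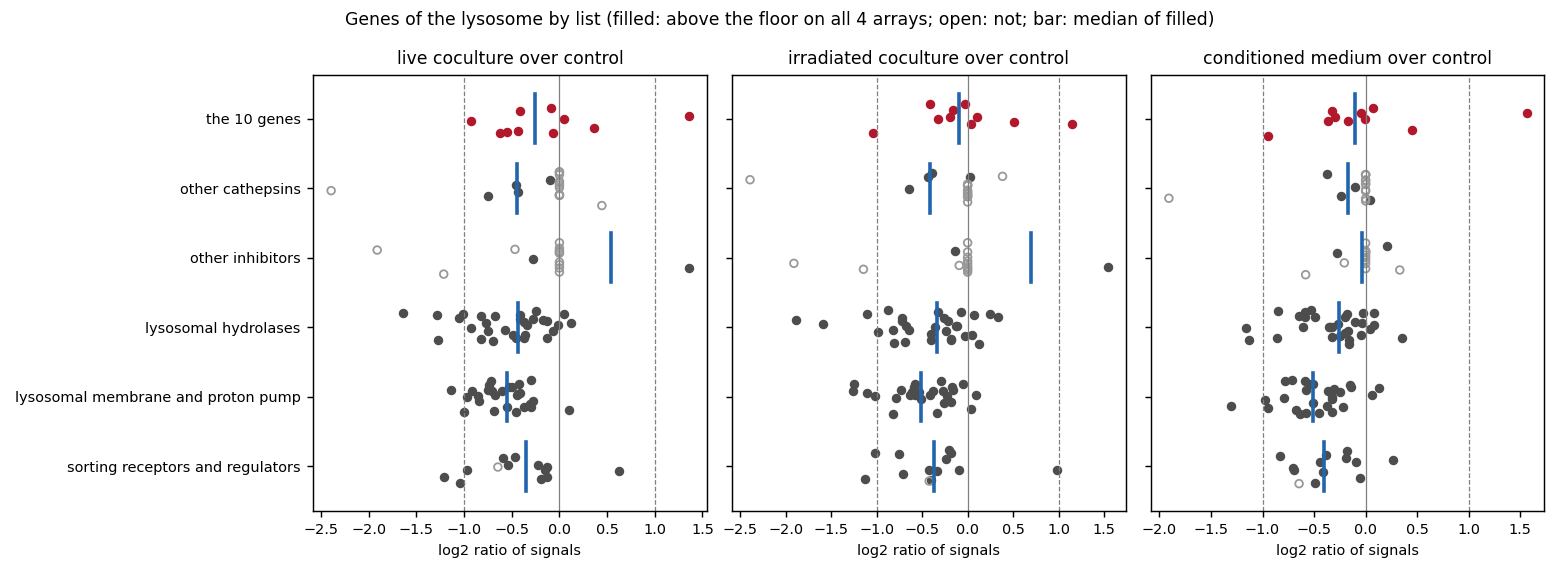
log2 ratio of each treated array to the control for the 10 genes (red) and 5 lists of related genes (grey), 1 point per gene at its brightest probe set. Open points were under the floor on at least 1 array, blue bars are medians of the filled points, and dashed lines mark 2-fold. Filled points of the hydrolase and of the membrane and proton pump lists lie mostly below 0 in all 3 panels.

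Of 13 sorting receptors and regulators, 12 were below the control on each treated array, and 2, 2 and 0 were at least 2-fold lower. With the mean over probe sets 9, 8 and 9 of the 13 were below the control and 4, 5 and 4 above it. Tfeb, the transcription factor that activates lysosomal genes, had signals of 276.2 with live 1D8 cells, 315.5 with irradiated 1D8 cells and 395.1 in conditioned medium, against 639.9 in the control, which is 2.32-fold, 2.03-fold and 1.62-fold lower. Gga2, an adaptor that sorts mannose 6-phosphate receptors, was 2.06-fold, 2.19-fold and 1.78-fold lower. Tfec, a relative of Tfeb, had 958.4, 1226 and 475.6 on the treated arrays in that order and 621.9 in the control. The receptors M6pr and Igf2r, which carry precursors of cathepsins to lysosomes, differed by at most 1.33-fold.

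Tfeb and its relatives bind the sequence CACGTG, and TCACGTG is part of the longer element known from promoters of lysosomal genes. Promoter windows of 250 bases before to 50 after the start site, from RefSeq on GRCm38.p6, were at hand for 7 of the 10 genes, in 8 windows. CACGTG was found in 3 of the 7 genes and TCACGTG, which contains it, in 2, on either strand. Of all 27025 genes with windows 8.09% and 4.29% held them. In Ctsd matches to CACGTG begin at positions -245 and -98 from the start site, in Ctsl at -236, and in 1 of the 2 windows of Lgmn at -49. The windows with a match are shown with the window of Ctsk, which was at least 1.90-fold lower on every treated array and holds none of the motifs. The windows of Ctsc, Ctsz and Cst3, which are not shown, hold none of them either. Sequences run 5′ to 3′ on the strand of the gene, and capitals mark CACGTG or TCACGTG on either strand.
Ctsd (chr7:142387778-142388077, minus strand): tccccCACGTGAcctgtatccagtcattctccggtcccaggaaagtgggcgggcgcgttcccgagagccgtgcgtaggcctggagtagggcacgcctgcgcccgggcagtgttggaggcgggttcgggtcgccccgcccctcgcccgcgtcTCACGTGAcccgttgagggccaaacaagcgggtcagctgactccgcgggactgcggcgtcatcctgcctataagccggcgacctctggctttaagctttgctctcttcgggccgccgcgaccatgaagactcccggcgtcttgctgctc
Ctsl (chr13:64370471-64370770, minus strand): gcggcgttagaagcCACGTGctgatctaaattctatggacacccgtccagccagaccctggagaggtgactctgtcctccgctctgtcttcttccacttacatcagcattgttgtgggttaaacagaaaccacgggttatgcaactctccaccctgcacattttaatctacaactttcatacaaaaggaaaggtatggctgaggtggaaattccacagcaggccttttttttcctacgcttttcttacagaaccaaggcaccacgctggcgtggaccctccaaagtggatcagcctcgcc
Lgmn (chr12:102439043-102439342, minus strand): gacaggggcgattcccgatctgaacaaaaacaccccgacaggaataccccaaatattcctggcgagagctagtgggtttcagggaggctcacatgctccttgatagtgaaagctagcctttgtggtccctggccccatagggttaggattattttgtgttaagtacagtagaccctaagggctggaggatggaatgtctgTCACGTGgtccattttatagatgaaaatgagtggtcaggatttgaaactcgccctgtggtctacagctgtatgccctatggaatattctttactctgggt
Ctsk (chr3:95498960-95499259, plus strand): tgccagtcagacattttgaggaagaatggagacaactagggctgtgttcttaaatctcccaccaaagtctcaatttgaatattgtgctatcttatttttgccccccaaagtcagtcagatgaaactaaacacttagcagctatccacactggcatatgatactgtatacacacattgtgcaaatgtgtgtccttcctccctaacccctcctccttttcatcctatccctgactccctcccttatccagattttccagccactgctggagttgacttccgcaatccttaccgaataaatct
The AP-1 motif TGANTCA (8.97% of all genes with windows) and a motif of interferon regulatory factors (3.99%) had no match in the 8 windows. A match describes letters only, and the genes with CACGTG, Ctsd, Ctsl and Lgmn, differed by at most 1.34-fold from the control at their brightest probe sets. The set of Ctsd lies in the top band of brightness, where ratios were small. The dimmer set of Ctsl was 1.68-fold and 1.20-fold lower in the live and irradiated cocultures and 1.41-fold higher in conditioned medium. A link between motif and signal was not tested.

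The sorted samples carried signals of several cell types. Of 11 dendritic cell markers 1, 2 and 1 were at least 2-fold higher and 4, 3 and 1 lower on the treated arrays in the order used above. Itgax was bright on all arrays (1921, 1388 and 2394 on the treated arrays and 2534 in the control), while Flt3, Zbtb46 and Dpp4 lay near or under the floor. The summed signal of the 11 markers was 11652, 12342 and 17324 on the treated arrays and 18926 in the control. The largest part of that sum was Cd74, the invariant chain, with 6054, 6864 and 7510 on the treated arrays and 8171 in the control. Cd80, the target of the sort, had 378.2, 325.8 and 201.3 on the treated arrays and 85.5 in the control. Macrophage markers were bright too, apart from Cd163, which was under the floor on all 4 arrays. A log2 ratio below 0 was found for 6, 6 and 5 of the 10 and above 0 for 3, 3 and 4. At least 2-fold higher were 1, 1 and 0, with 0 at least 2-fold lower. The higher one was Cd14, with 5615, 7823 and 2311 on the treated arrays and 2258 in the control. Mrc1 had 3021, 3196 and 2707 on the treated arrays and 1991 in the control, and Csf1r was at 6233, 6649 and 7015 on the treated arrays and 7521 in the control. Their summed signal over 10 genes was 31368, 36071 and 32135 on the treated arrays and 32427 in the control. Of 13 epithelial and mesothelial markers 6, 7 and 0 were at least 2-fold higher in the live coculture, the irradiated coculture and conditioned medium, 0 were lower, and their summed signal was 2956, 3597 and 829.5, against 481.8 in the control. Of these, 3, 3 and 8 were at or under the floor on the treated arrays and 10 in the control. In conditioned medium Krt19 had a signal of 22.2, under the floor, while Cdh1 was 1.78-fold and Epcam 1.62-fold above the control. For all the differences of the 10 genes the part of tumour cell RNA was not tested. Of 11 neutrophil markers 5, 4 and 3 were at least 2-fold lower and 0 at least 2-fold higher, while 1, 2 and 3 had a log2 ratio above 0. Their summed signal was 3723, 4515 and 8128 on the treated arrays, against 7914 in the control. Most of that sum was Mmp8, with 2635.4, 3101.6 and 6901.5 on the treated arrays and 5677.4 in the control. Fibroblast and matrix markers (12 genes) had 3, 4 and 0 at least 2-fold higher and 0 at least 2-fold lower. Mast cell and basophil markers (8 genes) had 2, 2 and 1 at least 2-fold lower and 0 at least 2-fold higher. H2-Eb1, an MHC class II gene, had 1348, 1653 and 3528 on the treated arrays and 4244 in the control. Ccr7, the chemokine receptor of migrating dendritic cells, had 131.6, 117.5 and 175.7 on the treated arrays and 596.4 in the control, lower on all 3. Cd86, another of the dendritic cell markers, had 234.5, 339.6 and 222.0 on the treated arrays and 149.1 in the control, higher on all 3 as Cd80 was.

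Of the 9847 genes above the floor on all arrays, those nearest in pattern over the 4 arrays were named for the 2 genes of the set with the widest range. The measure was the Euclidean distance between log2 signals centred on their mean. For Ctse, at its brighter probe set only, they were Smad6 (distance 0.08), P2ry12 (0.11) and Ect2 (0.13). Smad6 had signals of 155.4, 133.4 and 172.9 on the treated arrays and 63.4 in the control. For Ctsk they were Tarbp2, Cd83 and Lamtor3 (each 0.06). Cd83 had 187.2, 182.3 and 188.1 on the treated arrays and 361.2 in the control. Over 4 arrays many genes lie close to any pattern, and nearness describes these arrays only.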

How the data were processed

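RNA of 4 BMDC samples, 1 per condition, was measured on 1 mouse Affymetrix array each. Per the submitters' processing notes the authors used GCOS 1.4 and MAS5. The deposited values are linear signal intensity values, 1 per probe set, and the scaling target is not given in the sources used here. Without the lowest and highest 2% the mean signal was 150.0 on every array, and no further normalization was applied. Of 45101 probe sets 64 were controls, 34945 had 1 gene in the platform annotation, 932 had several and 9160 had none; the last 2 kinds were left out of gene counts. Signals were floored at 44.3 and ratios taken on the log2 scale. All genes of the set are named, with up to 4 genes of each related list among those at least 2-fold apart from the control and 3 genes nearest in pattern to each of 2 members. Other genes were named for their role. The members and lists were chosen with earlier results of these data known. Steps were tested on simulated data, with less noise than the spread between probe sets in the comparisons with the control. Known differences were placed only in genes of middle brightness, so the simulation does not cover the very bright sets. Python 3.11.15, pandas 2.3.3 and numpy 2.4.6 were used. With 1 array per condition no test was possible, and precision is limited by there being 4 arrays.

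Alternatives were floors at the 25th and 75th percentile (12.9 and 155.6), quantile normalization, median centring, averaging a gene's probe sets, and counting at 3-fold. Leaving out _s_at and _x_at sets, taking the brightest set with a mean signal under 5000, and the root mean square SD and other scalings for the counts beyond the spread were added after the data were seen.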

Additional observations from a re-analysis of the deposited data

How the results depend on the processing

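No paired analysis was possible because each condition has 1 array. With 1 array per condition nothing could be left out to judge the spread. Over the 6 comparisons the 10 genes gave 60 log2 ratios. The other floors could not change them, since the lowest signal of a brightest set, 297.8 for Ctsk in the irradiated coculture, exceeded both. Median centring shifts all ratios of a comparison by the same amount, which was less than the spread between probe sets of a gene. Under quantile normalization all 60 moved by less than this spread. With the mean over probe sets 17 of 60 moved by more. Counts of genes at least 2-fold apart from the control were 1, 2 and 1 in the live coculture, the irradiated coculture and conditioned medium. With median centring they were 2 in the live coculture and 2 in conditioned medium, where Ctsk passed the threshold, and with quantile normalization the count was 1 in the irradiated coculture, where Ctsk no longer passed it. The mean over probe sets left 0 in conditioned medium, and the unchanged counts in the cocultures held Ctsc in place of Ctse. The 3-fold threshold left 0 for all 3 treated arrays against the control, since Ctse reached at most 2.95-fold. Without _s_at and _x_at sets the counts were 0, 1 and 0, and Ctse stood at -0.31 (log2) with live 1D8 cells, the reverse of the value at its brighter probe set. With the brightest set under a mean of 5000, available for 7 genes, the counts against the control were 2, 3 and 1 and the medians -0.63, -0.33 and -0.27 in place of -0.25, -0.10 and -0.11, and the count was 2 between live coculture and conditioned medium, and 1 between irradiated coculture and conditioned medium, and the median log2 ratio of live against irradiated coculture was 0.12 in place of -0.09. The cause of these shifts beyond the choice of probe set was not tested. Median centring moved the median over genes above the floor by more than 0.1 (log2) only for live 1D8 cells against control, to -0.15 in place of -0.04.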
